A study of Mus musculus with 24 samples.

Results

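Pttg1, Manba, Hpgd, Ifi44l, B3gnt3, Calr3, Mgll, Ocel1, Marchf8 and Spata31f1b are 10 of the 13738 genes measured in mouse brain vessels. They were selected on measured values, because each one separated the APP libraries that carry a short name from those that carry a long name. The difference that selected them is therefore given below as a description, with no test. All 10 had a value in every library.

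Vessels had been pulled from brain with magnetic beads against CD31, an endothelial surface protein, and their messenger RNA was sequenced. The mice were APP/PS1 transgenics (APP/PS+ in the labels, APP below), a model of familial Alzheimer's disease in which amyloid plaques form, or WT mice, all 9 to 11 months old, with 6 males and 6 females of each genotype and 1 library per mouse. A short library name is a letter followed by 1 or 2 digits, and a long one has 4 digits. APP males 1 to 4, APP females 3 to 6 and the 6 WT males had short names. The long ones were those of APP males 5 and 6, APP females 1 and 2 and the 6 WT females. Neither what the styles of name stand for nor the promoter of the transgenes is given in the sources used here. In WT mice the style of name and sex coincide, so their effects cannot be told apart there.

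The 10 genes belong to no single pathway. Pttg1 encodes securin, which holds the protease separase inactive until chromosomes part. Manba, a lysosomal beta-mannosidase, trims sugar chains, Hpgd inactivates prostaglandins, and Mgll breaks down the endocannabinoid 2-arachidonoylglycerol. B3gnt3 is a Golgi N-acetylglucosaminyltransferase, Calr3 a testis form of the endoplasmic reticulum chaperone calreticulin, and Marchf8 a membrane ubiquitin ligase that removes receptors from the cell surface. Ifi44l is induced by interferon, Ocel1 carries a domain shared with the tight junction protein occludin, and Spata31f1b belongs to a family of testis genes.

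The genes lie on 5 chromosomes. Positions are those of RefSeq on GRCm38.p6, matched by Entrez ID, and the chromosome in the deposited table was the same for each of the 10. Distances between genes, here and below, are between their lowest positions, whatever the strand. Chromosome 8 holds 4 members. Hpgd spans 56294552 to 56321046, Ocel1 71371298 to 71373689, B3gnt3 71691373 to 71702626 and Calr3 72424176 to 72443819, so that the last 3 sit within 1.05 Mb. Manba (135485611 to 135571404) and Ifi44l (151758737 to 151762891) are 16.3 Mb apart on chromosome 3, and Mgll (88724412 to 88828360) and Marchf8 (116337599 to 116409540) are 27.6 Mb apart on chromosome 6. Pttg1 is on chromosome 11 (43420244 to 43427463). Spata31f1b, which RefSeq lists as Fam205a2, is on chromosome 4 (42522437 to 42537578).

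The levels of the 10 genes were correlated across libraries, some rising where others fell, in part because they were selected on the same split. Within the 6 groups the median absolute Pearson's r between members was 0.191. The 250 bases before the RefSeq start sites of the 10 genes were read for 6 short motifs on both strands. Windows lie wholly inside the gene spans given above for B3gnt3, Pttg1, Marchf8 and the second starts of Calr3, Mgll and Spata31f1b. For B3gnt3, Pttg1 and Marchf8 the bases upstream of the span were not read. The windows of 5 members are shown, those with 1 start site in the table and at most 1 base of an annotated exon in the window. Each reads 5′ to 3′ on the strand of the gene, from RefSeq on GRCm38.p6, with motif matches in capitals.

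Manba, chr3:135485361-135485610, plus strand: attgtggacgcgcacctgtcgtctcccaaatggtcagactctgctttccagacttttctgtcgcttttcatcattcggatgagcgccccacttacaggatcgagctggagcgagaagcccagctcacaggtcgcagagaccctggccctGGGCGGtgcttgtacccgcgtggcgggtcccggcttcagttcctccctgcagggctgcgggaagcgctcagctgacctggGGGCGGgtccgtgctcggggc
Hpgd, chr8:56294302-56294551, plus strand: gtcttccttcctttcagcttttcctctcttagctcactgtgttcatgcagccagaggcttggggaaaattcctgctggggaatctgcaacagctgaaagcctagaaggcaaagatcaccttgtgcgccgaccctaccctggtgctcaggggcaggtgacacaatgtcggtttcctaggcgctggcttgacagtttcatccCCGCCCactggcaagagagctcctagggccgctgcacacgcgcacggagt
Ifi44l, chr3:151762892-151763141, minus strand: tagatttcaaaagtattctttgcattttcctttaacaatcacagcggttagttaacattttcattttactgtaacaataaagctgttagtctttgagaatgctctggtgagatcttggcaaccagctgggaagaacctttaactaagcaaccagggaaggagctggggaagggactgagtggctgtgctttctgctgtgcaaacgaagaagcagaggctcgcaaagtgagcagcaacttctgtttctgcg
B3gnt3, chr8:71701801-71702050, minus strand: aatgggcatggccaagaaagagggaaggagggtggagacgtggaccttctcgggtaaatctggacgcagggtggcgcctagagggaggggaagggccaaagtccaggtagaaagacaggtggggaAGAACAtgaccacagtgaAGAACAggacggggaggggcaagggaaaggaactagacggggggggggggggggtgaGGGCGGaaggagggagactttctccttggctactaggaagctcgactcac
Ocel1, chr8:71371048-71371297, plus strand: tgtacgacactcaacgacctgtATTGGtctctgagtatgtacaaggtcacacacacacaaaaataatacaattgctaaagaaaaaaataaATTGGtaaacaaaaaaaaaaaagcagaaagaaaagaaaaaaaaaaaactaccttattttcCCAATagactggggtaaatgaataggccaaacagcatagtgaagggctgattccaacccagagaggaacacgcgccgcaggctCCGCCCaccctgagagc

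No motif was common to the set. The shares given for comparison count each promoter once, whereas a member is counted if any of its starts matched. Calr3, Mgll and Spata31f1b have 2 starts each, so the counts of members and these shares are not like for like. The GC box GGGCGG, present in 32.7% of 32851 promoters, matched before 6 of the 10 members, 2 times for Manba and once each for Hpgd, B3gnt3, Ocel1, Marchf8 and the second start of Mgll. The CCAAT box CCAAT (33.8% of promoters) matched 3 times before Ocel1 and once before each of the 2 starts of Calr3. TGTTCT, the core of a glucocorticoid receptor site found in 16.1% of promoters, matched 2 times before B3gnt3 and once before the first start of Mgll and the second start of Spata31f1b. The E box CACGTG (6.02% of promoters) matched 2 times before Marchf8 and once before the first start of Mgll, and TATAAA (12.4%) matched 3 times before the first start of Spata31f1b. The core of the interferon-stimulated element (GAAA, any 2 bases, then GAAA), found in 2.98% of promoters, matched before none of the 10. Ifi44l and Pttg1 held none of the 6 motifs in the windows read, and the window of Pttg1 lies inside the gene span. A match is a description of the letters in the window and no evidence of binding.

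Levels are given in CPM, the reads of a gene per 1 M reads of its library. Depth was 52.4 to 75.9 M reads per library, with 3 reads worth 0.0395 to 0.0573 CPM. The sex labels matched Xist (328 to 482 CPM in females, 0.0177 to 1.41 in males) and Ddx3y, while App did not separate the genotypes (2033 to 2855 CPM in APP, 2056 to 2870 in WT). The endothelial markers Pecam1, Cldn5 and Flt1 were at 1216 to 4206 CPM throughout. In bulk vessels, fewer cells of a type and less RNA per cell cannot be told apart.

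Pttg1 was low in the short-named APP libraries. Its levels were 4.08, 3.5, 5.12 and 3.39 CPM in the 4 short-named APP males and 3.41, 3.81, 3.25 and 3.43 CPM in the 4 females. In the long-named APP libraries they were 62.7 and 59.5 CPM in males and 56.7 and 55.9 CPM in females. The means of the 2 sets, 3.75 ± 0.616 CPM (SD, n = 8) and 58.7 ± 3.1 CPM (SD, n = 4), were 15.7-fold apart, far beyond the spread within either set. WT males, at 25.2 to 35.4 CPM with a median of 28.7, lay in the gap that separates the APP sets. WT females, at 48.7 to 67.6 CPM with a median of 60.6, overlapped the long-named APP libraries.

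The 3 enzymes of the lysosome and of lipid signals split the APP libraries in opposite directions. Manba was at 25.2 to 33 CPM in short-named and 69.7 to 73.2 CPM in long-named APP libraries, a 2.44-fold difference of means, with WT males at 37.3 to 45.6 and WT females at 66.8 to 80.6 CPM. Hpgd was at 3.33, 1.52, 1.58 and 1.67 CPM in short-named APP males, 1.99, 1.41, 1.43 and 2.28 CPM in short-named APP females, 42.3 and 40.8 CPM in long-named males and 21 and 17.8 CPM in long-named females. Its means differed 16-fold, the largest ratio in the set among genes detected in every library. Here the WT sexes overlapped, with males from 7.87 to 18.2 CPM and females from 10.6 to 36.1 CPM. Mgll, the most abundant of the 10, ran the other way, at 241 to 325 CPM in short-named APP libraries against 113 to 139 CPM in long-named ones, or 2.15-fold. For Mgll the WT males (230 to 261 CPM) overlapped the short-named APP libraries and the WT females (115 to 153 CPM) the long-named ones.

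B3gnt3 and Calr3, which are 0.733 Mb apart, also went opposite ways. B3gnt3 was at 2.92 to 6.4 CPM in short-named APP libraries, 22.2 and 30.7 CPM in long-named males and 38.5 CPM in both long-named females, a 6.38-fold difference of means. The WT males (15.6 to 30.3 CPM) lay below all of the WT females (34.5 to 62.7 CPM). Calr3 was 8.33-fold higher in APP mice with short names, from 3.93 to 7.35 CPM against 0.57 to 0.729 CPM. The 6 WT males, at 2.18 to 3.45 CPM, fell between those ranges, and the WT females, at 0.266 to 0.867 CPM, around the lower one.

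Ifi44l was the member nearest to present or absent. It was at 6.11, 11.2, 3.67 and 6.66 CPM in short-named APP males and at 26.4, 26.3, 12.8 and 14.6 CPM in short-named APP females. Of the 4 long-named APP libraries 3 were at 0 and 1 held a single read. The short-named mean was at least 252-fold higher than 3 reads in the shallowest long-named library. WT males were at 0.857 to 1.82 CPM (522 reads over 6 libraries), whereas the 6 WT females held 2 reads between them and 4 were at 0. The mean of WT males was thus at least 25.2-fold higher than the level of 3 reads in the shallowest WT female library.

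The remaining members were Marchf8, which had the smallest difference of the set, Ocel1, and Spata31f1b, which was near the limit of detection. Marchf8 was at 42.9 to 59.7 CPM in short-named and 74.5 to 84.9 CPM in long-named APP libraries, 1.56-fold apart, with WT males at 62.3 to 70.7 CPM and WT females at 71.6 to 85 CPM. Ocel1 was 2.42-fold higher in the short-named set, at 29.7 to 40.4 against 11 to 17.4 CPM, with WT males at 19.7 to 29.8 and WT females at 15 to 18.4 CPM. Spata31f1b was at 0 in 4 of 8 short-named APP libraries and at most 0.152 CPM in the others, against 1.45 to 2.37 CPM in long-named ones, 0.714 to 1.24 CPM in WT males and 2.03 to 4.1 CPM in WT females.

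**Figure D1:**
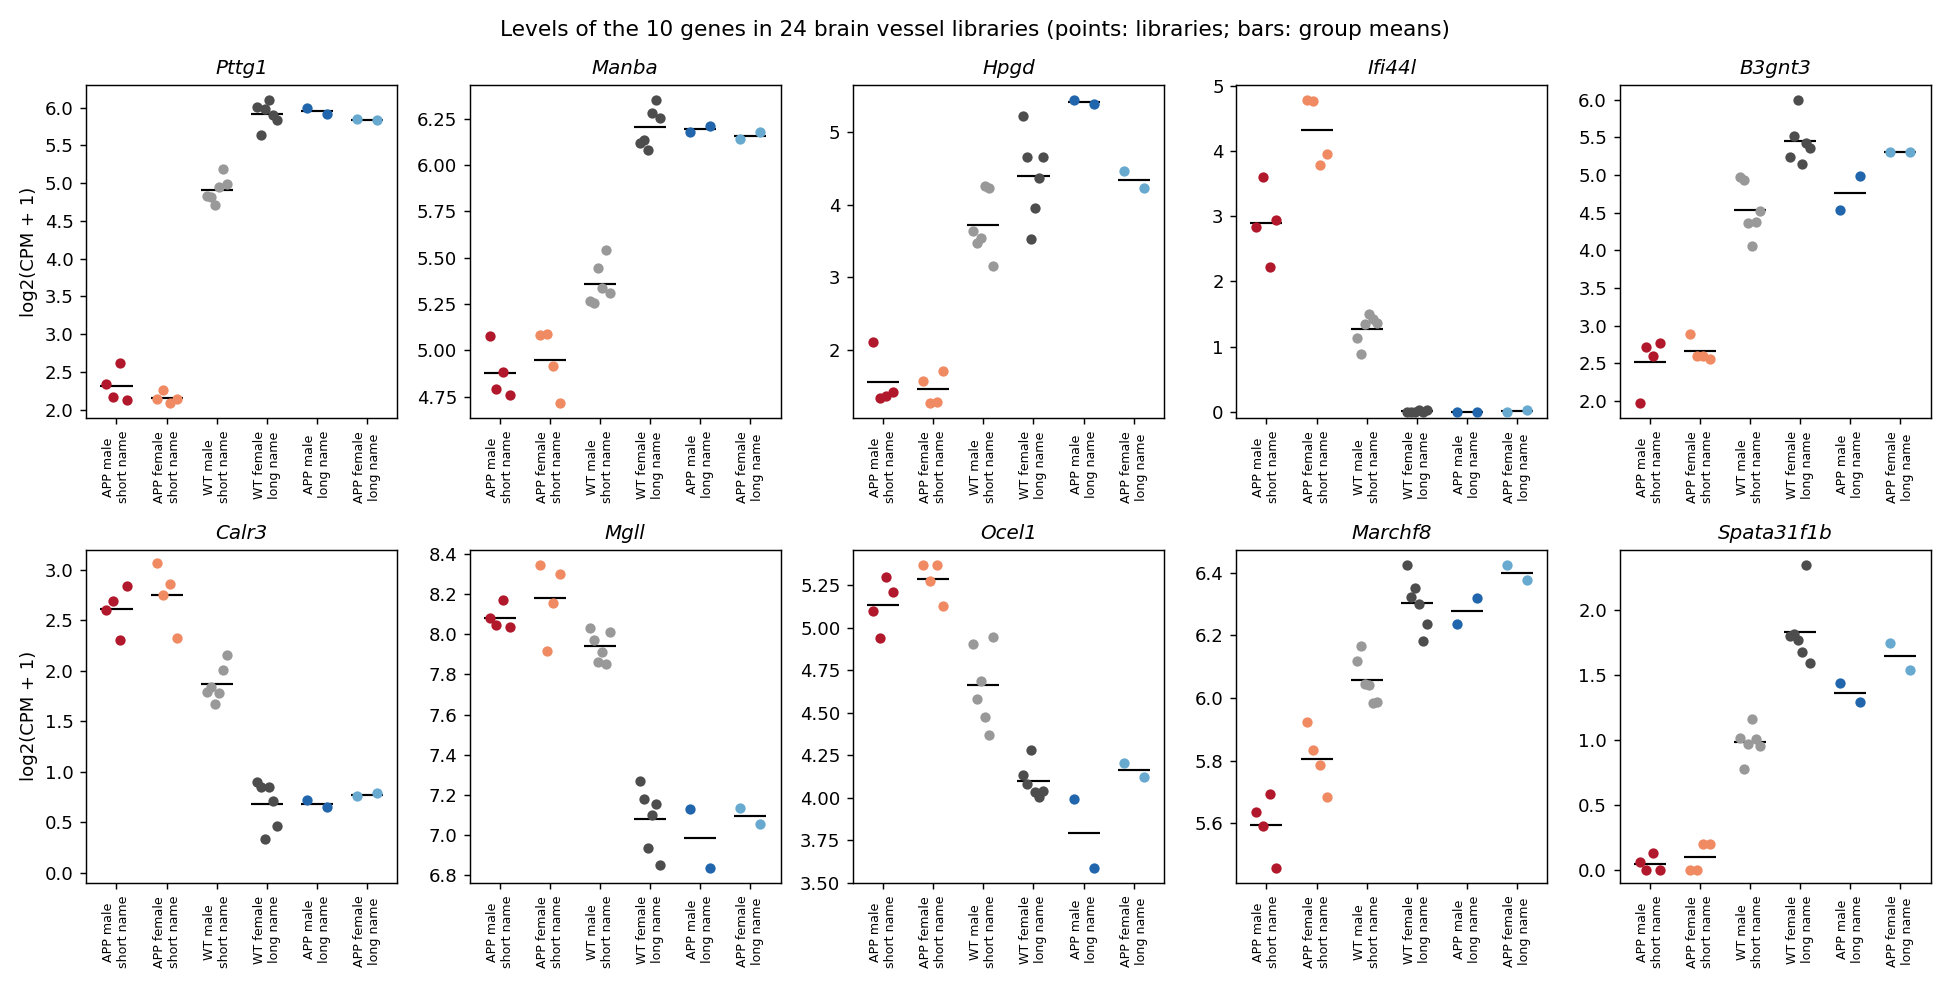
Level of each of the 10 genes, as log2(CPM + 1), in the 24 libraries, grouped by genotype, sex and style of library name; each point is a library and each bar a group mean, and axes differ between panels. In every panel the short-named and long-named APP points do not overlap, and WT males lie apart from WT females except for Hpgd.

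Reads of near-identical sequences bear on some of these values. Every 50-base word of the annotated Spata31f1b transcript (100%) also occurs in another transcript, chiefly Fam205a4, Fam205a3 and Fam205a1, so its level is uncertain as a measure of that copy alone. For Ocel1 19.4% of words also occur in Nr2f6, a nuclear receptor gene, which was at 18.1 to 26.5 CPM in short-named and 24.7 to 27.9 CPM in long-named APP libraries. The 2 sets of Nr2f6 values overlapped and leaned the other way from Ocel1. Mgll shared 1.36% of words with an overlapping long non-coding RNA, B3gnt3 0.532% and Marchf8 0.02%, and the other 5 members shared none. Whether the counting used strand is not given in the sources used here.

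On the log2(CPM + 1) scale the short minus long differences, averaged over the sexes, were -3.66 for Pttg1 (SE 0.10), -3.37 for Hpgd (SE 0.24), -2.45 for B3gnt3 (SE 0.18), -1.43 for Spata31f1b (SE 0.12), -1.27 for Manba (SE 0.08) and -0.64 for Marchf8 (SE 0.06). The positive ones were 3.60 for Ifi44l (SE 0.20), 1.95 for Calr3 (SE 0.14), 1.23 for Ocel1 (SE 0.10) and 1.09 for Mgll (SE 0.08). Across all genes 9.75% passed an adjusted p under 0.05 in this contrast, 425 of them higher and 914 lower under short names, and the median gene was at -0.07. With TMM scaling (a trimmed mean that sets libraries to a common level) the split was 598 higher of 1146. The short-named and long-named APP libraries did not overlap for 10 of the 10 members, which is what selected them, and for 4.38% of all genes. By the absolute size of this difference 3 members were among the first 10 genes and 8 among the first 100.

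The WT libraries took no part in that contrast and allow a test, although their values were already known when the genes were listed, so the count below is not independent support. All 10 members differed between WT females and WT males at an adjusted p under 0.05 (limma with Benjamini-Hochberg adjustment over 13738 genes), where 19.4% of all genes did. In each of the 10 WT females lay on the side of the long-named APP libraries. The 6 that were higher in WT females (11.9% of all genes were) were led by Pttg1, with a log2 difference of 0.998 (SE 0.09, adjusted p = 2.59e-07). B3gnt3 differed by 0.91 (SE 0.17, adjusted p = 9.22e-04), Spata31f1b by 0.85 (SE 0.11, adjusted p = 4.31e-05), Manba by 0.84 (SE 0.07, adjusted p = 1.52e-07) and Marchf8 by 0.25 (SE 0.05, adjusted p = 0.00354). Hpgd, at 0.68 (SE 0.23, adjusted p = 0.0424), was the weakest call. Its adjusted p ran from 0.0103 to 0.0957 over 17 alternatives and missed the threshold in 10 of them, including the removal of any 1 of WT males 1, 2, 3 and 6 or of WT females 1, 2, 5 and 6.

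Of the 4 members lower in WT females (7.53% of all genes were), Ifi44l differed by -1.27 (SE 0.19, adjusted p = 1.77e-04) and Calr3 by -1.19 (SE 0.13, adjusted p = 3.94e-06). Mgll differed by -0.86 (SE 0.08, adjusted p = 2.10e-07) and Ocel1 by -0.56 (SE 0.10, adjusted p = 6.11e-04). The 6 WT males and 6 WT females did not overlap for 9 of the 10 members, all but Hpgd. Among the 602 genes whose APP sets do not overlap, 17.9% had WT sexes apart in this way, with the females on the long-named side.

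WT males held an intermediate level. When 0 marks the mean CPM of short-named and 1 that of long-named APP libraries, the median place of WT males over the members was 0.507, from 0.238 for Mgll to 0.893 for Ifi44l. Pttg1 was placed at 0.465, Marchf8 at 0.499 and Spata31f1b at 0.514. Mgll and Manba (0.259) were nearest the short-named side, and B3gnt3 (0.648) and Ifi44l nearest the long-named one. That order belongs to the CPM scale. On the log2 scale Ifi44l was placed at 0.648, below B3gnt3 (0.798), Pttg1 (0.731) and Hpgd (0.655, against 0.377 in CPM). For WT females the median place was 1.003, from 0.688 for Hpgd to 1.42 for Spata31f1b, and their range overlapped that of the long-named APP libraries for each of the 10. All 6 WT males fell in the gap between the APP sets for Pttg1, Manba, Ifi44l, Calr3, Marchf8 and Spata31f1b, that is for 6 of the 10 members, against 2.33% of the 602 genes. The members were selected on the difference that makes this gap, and 8 of them were among the first 100 genes by its size. A wide gap holds more values, so these shares are not like for like.

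**Figure D2:**
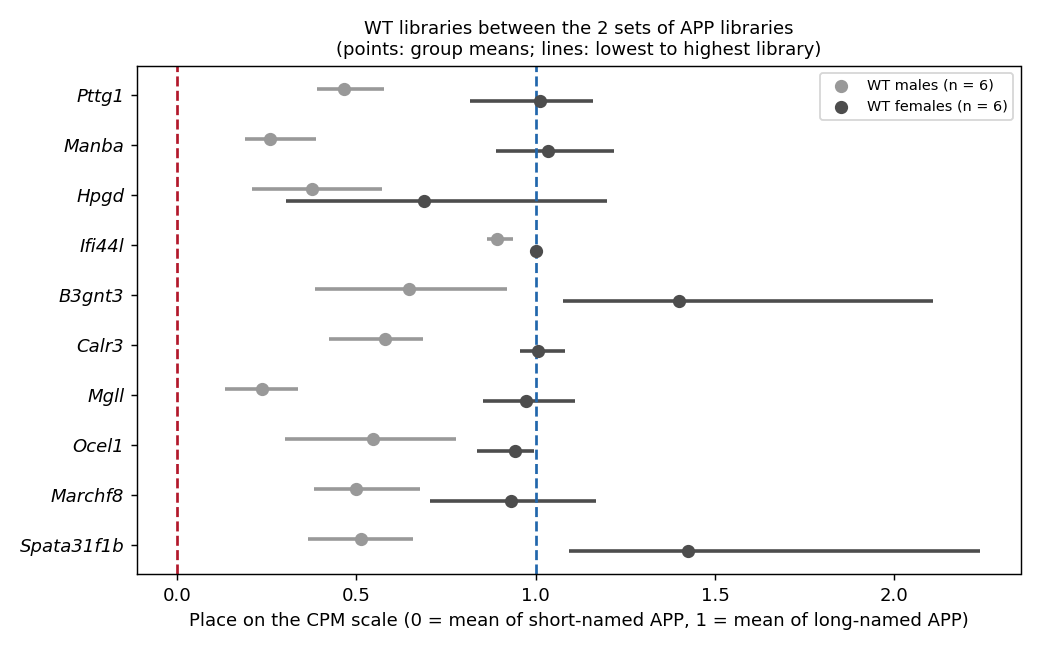
Place of WT males and WT females on the CPM scale for each gene, where 0 (red dashed line) is the mean of the 8 short-named and 1 (blue dashed line) the mean of the 4 long-named APP libraries; points are group means and lines run from the lowest to the highest of 6 libraries. WT males lie from 0.238 to 0.893 and WT females from 0.688 to 1.42, with overlap between the sexes for Hpgd only.

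Those 2.33% are 14 genes, of which 8 are not members. They were named after their values were seen: Acp1, Sntg2 and Trappc12 on chromosome 12, Ccl27a and Gm2163 on chromosome 4, Rps3a1 on chromosome 3, 4833420G17Rik on chromosome 13 and Pim1 on chromosome 17. Library by library, the short-named APP mice were nearer the short-named mean for 10 of the 10 members and the long-named APP mice and WT females for 0, on the log2 scale. The WT males were nearer it for 3 to 6 members, with Manba and Mgll among them in every WT male.

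Sex itself was tested within each style of name in APP, where it does not coincide with the style. Among the short-named APP mice 2 of the 10 members differed between the sexes, where 12.8% of all genes did. Ifi44l was higher in females by 1.42 (SE 0.23, adjusted p = 2.37e-04), the opposite direction to WT, and the 4 females (12.8 to 26.4 CPM) lay above the 4 males (3.67 to 11.2 CPM). Marchf8 was higher in females by 0.21 (SE 0.07, adjusted p = 0.0362), which missed the threshold with TMM scaling (0.13, adjusted p = 0.254), when only these 8 libraries were fitted (adjusted p = 0.129) and without any 1 of APP males 1, 2 and 4 or APP females 3, 4 and 5 (adjusted p = 0.0516 to 0.146). Other cell types moved with this comparison. Of the markers measured, 8 of 8 for oligodendrocytes, 6 of 6 for neurons, 7 of 8 for pericytes and 6 of 8 for astrocytes were higher in short-named APP females, with median log2 differences of 2.68, 2.51, 1.58 and 1.90. Summed oligodendrocyte markers were at 1598 to 3119 CPM in these females and 86 to 131 CPM in the males, and neuron markers at 155 to 329 against 11.5 to 15 CPM. Pericyte markers summed to 554 to 838 against 216 to 334 CPM, astrocyte markers to 404 to 1435 against 218 to 387 CPM, and no marker was at 0. Endothelial markers had 1 of 12 higher and a median of -0.02. Their part in the differences of Ifi44l and Marchf8 was not tested.

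Among the long-named APP mice, 2 against 2, 0 of the 10 members were called by limma and 0.0873% of all genes were; 2 members, Hpgd and Ocel1, had an unadjusted p under 0.05. Hpgd was at 21 and 17.8 CPM in these females and 42.3 and 40.8 CPM in the males, a log2 difference of -1.07 with a 95% interval of -1.90 to -0.24. For Pttg1 the same difference was -0.12 (-0.44 to 0.21) and for Manba -0.04 (-0.30 to 0.22). The style difference itself did not pass a test of dependence on sex for any member (0 of 10 called by limma, 2.37% of all genes called, 1 member with an unadjusted p under 0.05). The nearest was Ifi44l, whose style difference was larger in females by 1.41 (SE 0.40, adjusted p = 0.0629). Markers moved with this comparison too: 7 of 8 for pericytes, 5 of 8 for astrocytes, 4 of 8 for oligodendrocytes and 4 of 6 for neurons were called, all with a larger style difference in females (medians 1.89, 2.50, 2.31 and 2.68), and their part was not tested. Ifi44l passed without APP male 2 (1.65, adjusted p = 0.0198) or without APP female 5 (1.59, adjusted p = 0.0420).

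**Figure D3:**
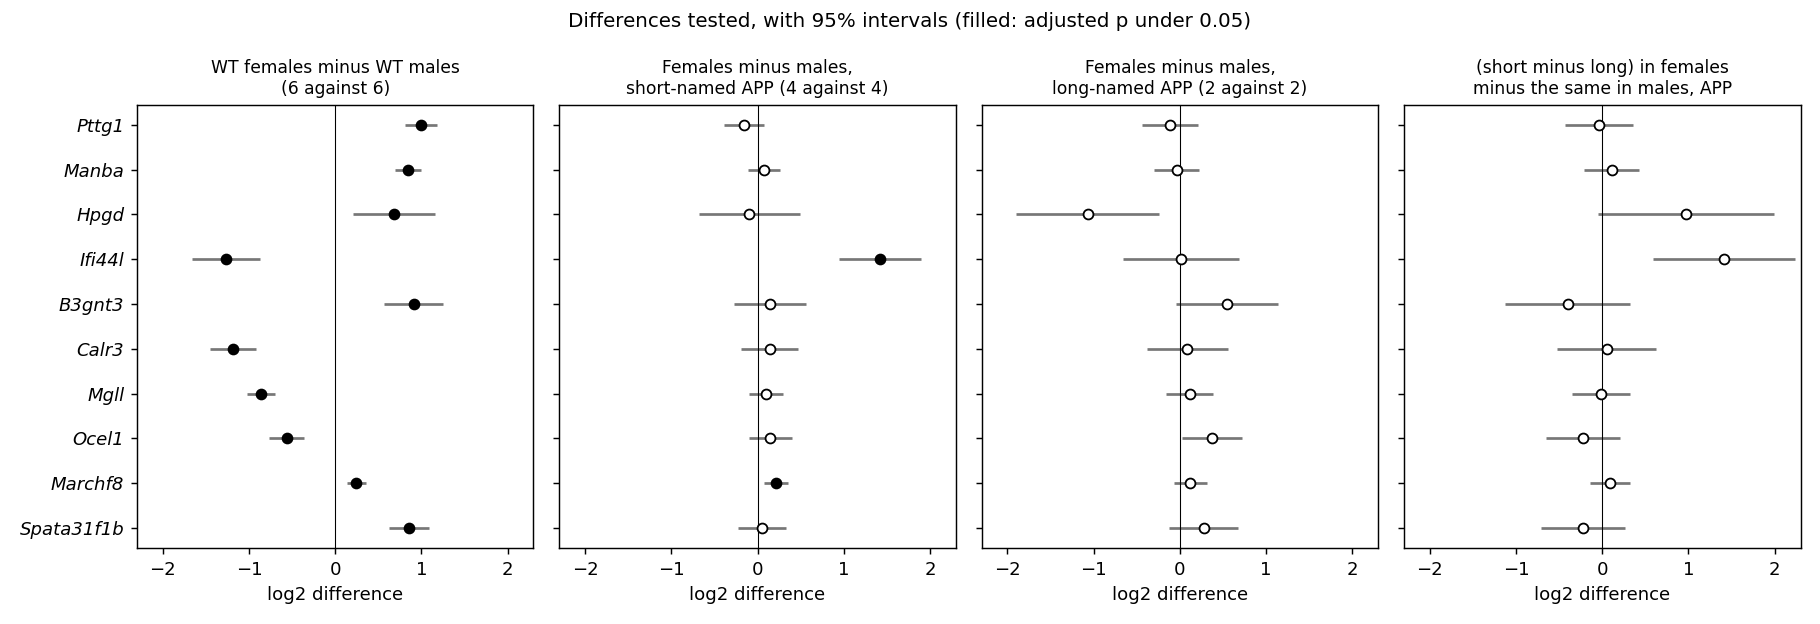
Differences on the log2(CPM + 1) scale with 95% intervals for the 4 tested comparisons; filled points have an adjusted p under 0.05. All 10 points are filled for WT females minus WT males, 2 (Ifi44l and Marchf8) for the sexes of short-named APP mice, and 0 in the other panels.

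Within 1 style of name the genotypes can be set side by side for one sex each. These comparisons share libraries with the one that selected the genes and are given as values. Long-named APP females differed from WT females (2 against 6) by -0.19 (Spata31f1b) to 0.10 (Marchf8) on the log2 scale over the 10 members. With so few libraries the 95% intervals were wide, such as -0.73 to 0.62 for Hpgd. Of all 13738 genes 26 were called by limma. Short-named APP males differed from the short-named WT males (4 against 6) by -2.60 for Pttg1, -2.16 for Hpgd and -2.02 for B3gnt3. The differences were -0.93 for Spata31f1b, -0.48 for Manba and -0.46 for Marchf8. Mgll was at 0.14 (95% interval -0.03 to 0.32), Ocel1 at 0.48, Calr3 at 0.74 and Ifi44l at 1.62. Here 3087 of all 13738 genes were called, so differences were not particular to the members. The 2 comparisons differ in sex and in number of libraries and are not like for like.

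Ifi44l parted from the other interferon-induced genes. In the interferon response list, which holds 38 measured genes beside Ifi44l, 29 were higher and 1 lower in WT females (median 0.59, against 0.02 over all genes), whereas Ifi44l was lower; the 1 lower gene of the list was Trim25, at -0.35. Irf7, the transcription factor that amplifies the response, was at 109 to 298 CPM in WT females and 71.3 to 99 CPM in WT males (0.92, SE 0.17, adjusted p = 0.00111), and Ifi27l2a rose by 1.53 (SE 0.28, adjusted p = 9.15e-04) and Lgals3bp by 0.90 (SE 0.15, adjusted p = 5.96e-04). In short-named APP libraries 0 of the 38 were higher and 7 lower than in long-named ones (median -0.34), such as the antiviral gene Rsad2 (-0.92, SE 0.21, adjusted p = 0.00868) and the RNA sensor regulator Dhx58 (-0.50, SE 0.12, adjusted p = 0.0121). That count was 4 with TMM scaling and 17 without WT female 3. Ifi44, the closest relative of Ifi44l, was at 31.4 to 95.3 CPM in short-named and 38.9 to 51.2 CPM in long-named APP libraries, which overlap, and at 24.6 to 64.4 in WT females against 15.1 to 29.4 CPM in WT males.

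Within the short-named APP mice the list and Ifi44l had the same direction by sex. There 19 of the 38 genes were higher and 0 lower in females (median 0.56), 11 with TMM scaling, and Ifi44l was higher too. This is the comparison in which 8 of 8 oligodendrocyte, 7 of 8 pericyte, 6 of 6 neuron and 6 of 8 astrocyte markers were also higher, and their part in the change of the list was not tested. Averaged over the list as centred log2 values, short-named APP males were at -0.42 to -0.11, short-named APP females at -0.04 to 0.56, long-named APP libraries at 0.17 to 0.56, WT males at -0.63 to -0.30 and WT females at -0.18 to 0.91. The highest value was that of WT female 3, in which Ifi44l was at 0; without it 26 of the 38 genes were higher in WT females.

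**Figure D4:**
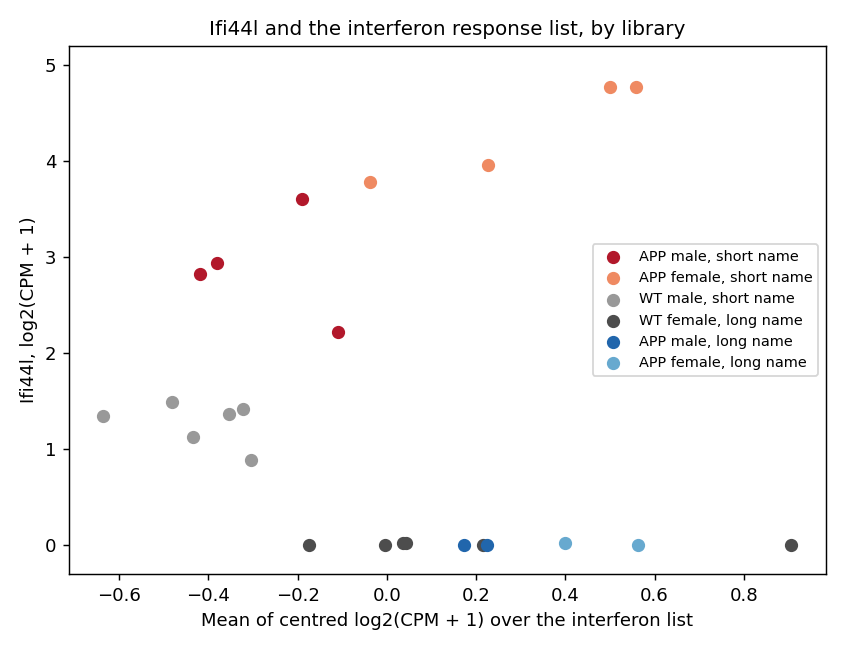
Ifi44l, as log2(CPM + 1), against the mean of centred log2(CPM + 1) over 38 other interferon response genes; each point is a library, coloured by genotype, sex and style of name. The long-named libraries of both genotypes lie at or near 0 for Ifi44l while their list means run from -0.18 to 0.91.

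Over the 10 lists drawn up around the members, 22 of 219 genes were called in the style contrast, near the 9.75% of all genes. The shares ran from 0% for securin genes to 18.5% for glycosidases and 18.4% for interferon genes. Of 31 genes of securin, separase and anaphase 0 were called (limma; 4 at an unadjusted p under 0.05), with a median of -0.02 against -0.07 over all genes; in WT females 3 were higher and 5 lower, among them the cohesin gene Stag2 (-0.40, SE 0.09, adjusted p = 0.00540). Of 27 lysosomal glycosidases and related genes 1 was higher and 4 lower in short-named APP libraries, and 8 were higher and 2 lower in WT females. The one higher by style was Gla, at 0.60. Idua, which degrades glycosaminoglycans, was -0.28 by style (SE 0.07, adjusted p = 0.00972) and 0.27 in WT females (SE 0.06, adjusted p = 0.00463), the directions of Manba. Of 23 prostaglandin genes 1 was higher (the prostacyclin synthase gene Ptgis) and 2 lower by style, and 4 were higher and 0 lower in WT females. Pla2g4a, the phospholipase that releases arachidonic acid, was -0.57 by style (SE 0.15, adjusted p = 0.0188) and 0.97 in WT females (SE 0.14, adjusted p = 1.62e-04), as Hpgd was in sign.

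For the relatives of B3gnt3 (25 glycosylation genes) 0 were higher and 1 lower by style, B4galt3 (-0.27, SE 0.06, adjusted p = 0.00865), and 2 were higher and 4 lower in WT females, with B3gnt2 at -0.41 (SE 0.08, adjusted p = 0.00145), opposite in sign to B3gnt3. Of 21 calreticulin and lectin chaperone genes 1 was higher (P4hb) and 2 lower by style (Pdia6 and Mogs), and 1 higher (Mogs) and 0 lower in WT females. Mogs lost its WT call with TMM scaling and without WT female 3. Of 21 endocannabinoid genes 1 was higher by style, the phospholipase gene Plcb1 (0.27, SE 0.06, adjusted p = 0.00860), and 1 was higher (Ddhd2) and 1 lower (Fabp7) in WT females. Of 18 MARCH ligases and targets 1 was higher by style, the transferrin receptor gene Tfrc (0.70, SE 0.20, adjusted p = 0.0321), and 3 were higher and 2 lower in WT females. Marchf9 was at 7.39 to 9.52 CPM in WT males and 3.94 to 4.85 CPM in WT females (-0.78, SE 0.09, adjusted p = 3.94e-06), opposite in sign to Marchf8. Of 13 occludin and ELL domain genes 1 was lower by style, Ice1 (-0.22, SE 0.06, adjusted p = 0.0246), which no longer passed with TMM scaling. Only 2 testis genes of the Spata31f1b list were measured, and 1, Adam3, was higher in WT females (0.61, SE 0.17, adjusted p = 0.0171).

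Markers of cell types showed 2 calls in the style contrast over 12 lists, the astrocyte glutamate transporter Slc1a3 at 1.26 and the GABA-synthesising enzyme Gad1 at -1.10. Both ran against the median of their own list, which was -0.52 for astrocyte and 0.17 for neuron markers. The 12 endothelial markers had 0 calls (limma; 3 at an unadjusted p under 0.05), with mean centred log2 values of -0.13 to 0.22 in short-named and -0.28 to 0.13 in long-named APP libraries. Astrocyte markers summed to 218 to 1435 CPM under short and 254 to 806 CPM under long names, and neuron markers to 11.5 to 329 CPM and 29.3 to 89.8 CPM. The sets overlapped for endothelial and astrocyte markers. For neuron markers the short-named males (11.5 to 15 CPM) lay below all long-named APP libraries and the short-named females (155 to 329 CPM) above them. Oligodendrocyte sums were likewise 86 to 131 CPM in short-named males and 1598 to 3119 CPM in short-named females, against 214 to 582 CPM under long names. Pericyte sums were 216 to 334 CPM in short-named males, below the 448 to 789 CPM under long names. In short-named females they were 554 to 838 CPM, which overlapped the long-named range. Pericyte and fibroblast markers had 0 calls (limma). At an unadjusted p under 0.05 were 5 of 8 pericyte markers (median -0.47) and 3 of 5 fibroblast markers (median 0.76). No measured marker was at 0. In WT females 3 of 12 endothelial markers (Tek, Kdr and Tie1, by 0.34 to 0.38) were higher than in WT males. There 2 of 8 astrocyte markers (Slc1a2 and Slc1a3) were lower, and the astrocyte sum was 384 to 874 CPM in WT females against 810 to 1565 CPM in WT males. The part of these markers in the differences of the members was not tested.

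Across the 24 libraries the members were correlated in 2 directions, with 21 pairs of positive and 24 of negative r. Pearson's r of log2(CPM + 1) had absolute values of 0.792 to 0.955 over the 45 pairs (median 0.904). Around the means of the 6 groups the median absolute r was 0.191 and the highest 0.574, so the likeness lay mostly between groups. The points share libraries and their scaling, and the genes were selected for 1 of the group differences. The genes most like Pttg1 were Rps3a1, a ribosomal protein gene (r = 0.967), the chemokine gene Ccl27a (0.964) and Gm2163 (0.955). Rps3a1 was at 24.9 to 31.8 CPM in short-named APP libraries, 134 to 150 CPM in long-named ones, 62.5 to 102 CPM in WT males and 84.1 to 142 CPM in WT females. Sequence shared with other genes was not measured for these 3.

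The same few genes recurred for other members. Gm2163 was the most alike to B3gnt3 (r = 0.962), Calr3 (r = -0.946) and Marchf8 (r = 0.931), Rps3a1 to Hpgd (r = 0.960) and Ccl27a to Spata31f1b (r = 0.948), while Pttg1 was the most alike to Ifi44l (r = -0.954) and Mgll to Manba (r = -0.950). Outside that circle, A530016L24Rik followed Mgll (r = 0.963), Ciapin1 followed Ocel1 (r = 0.936), Nckap5 followed Marchf8 (r = 0.921) and the transcription factor gene Atoh8 ran against Manba (r = -0.939). A530016L24Rik was at 5.39 to 17.1 CPM in short-named and 0.924 to 1.57 CPM in long-named APP libraries.

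Within 1 Mb of the members lay 164 other measured genes, and 15.2% of them passed in the style contrast, against 9.75% of all genes, a difference that was not tested. Over whole chromosomes 11.9% passed on chromosome 8, 12.8% on 3, 11.3% on 6, 9.58% on 11 and 8.57% on 4. Of the called neighbours 6 were higher and 19 lower in short-named APP libraries. The share was 35% for Marchf8, 20.6% for Calr3, 18.9% for B3gnt3, 18.2% for Ifi44l, 14.75% for Ocel1, 11.1% for Spata31f1b and 4.5% for Mgll. The windows of Calr3, B3gnt3 and Ocel1 overlap and hold some of the same called genes, so their shares are not separate. Near Pttg1, Manba and Hpgd 0 of 5, 0 of 8 and 0 of 2 neighbours were called by limma. On chromosome 8, the 93 other genes within 2 Mb of B3gnt3 had style differences of -0.98 to 0.70, whereas B3gnt3, Ocel1 and Calr3 were at -2.45, 1.23 and 1.95. These members were selected on this same difference, so their place outside the range of the neighbours is a description only. Between Ocel1 and B3gnt3 lie 18 measured genes, 0 of them called by limma. The neighbours called outside that interval include Smim7 (-0.40, SE 0.06, adjusted p = 2.50e-04) and Haus8, a subunit of the augmin complex of the spindle (-0.69, SE 0.11, adjusted p = 3.82e-04).

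**Figure D5:**
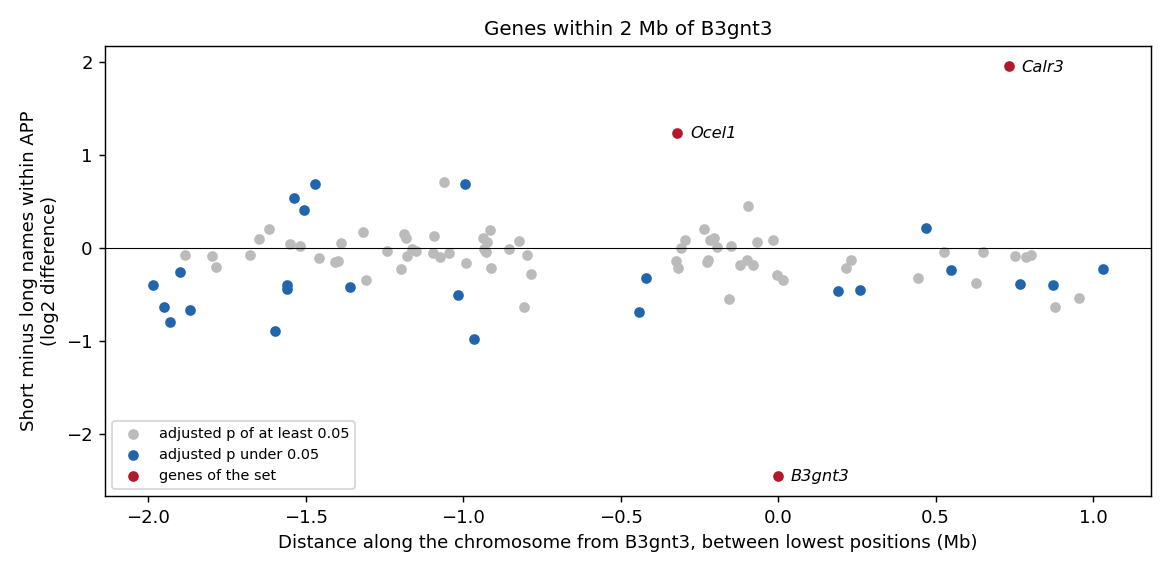
Short minus long difference within APP, on the log2(CPM + 1) scale, of the genes within 2 Mb of B3gnt3, by distance along the chromosome; red points are B3gnt3, Ocel1 and Calr3, blue points other genes with an adjusted p under 0.05 and grey points the rest. The 93 other genes stay between -0.98 and 0.70, inside the 3 members, which were selected on this difference.

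Next to Marchf8 7 of 20 neighbours were called, 4 higher and 3 lower. Rassf4 (-0.99, SE 0.15, adjusted p = 2.63e-04) and the DNA glycosylase gene Mbd4 (-0.97, SE 0.13, adjusted p = 4.81e-05) were lower, while Zfand4 (0.86, SE 0.13, adjusted p = 2.42e-04) was higher. Alox5, the leukotriene-forming lipoxygenase, has its lowest position at 116410071, just past the end of Marchf8 at 116409540. The lowest positions of these genes are 0.0725 Mb apart. Alox5 was at 8.72 to 47.7 CPM in short-named against 5.9 to 14.8 CPM in long-named APP libraries (1.29, SE 0.31, adjusted p = 0.0111). Around Spata31f1b 3 of 27 were called, all lower. Gm3883, 0.0691 Mb away, was at 0 to 0.264 CPM in short-named and 1.15 to 1.69 CPM in long-named APP libraries (-1.22, SE 0.12, adjusted p = 5.12e-07). Ccl27a, 0.753 Mb away, reached 0.246 to 0.782 CPM in the short-named and 4.3 to 7.28 CPM in the long-named set, with WT males (1.7 to 3.62 CPM) again below WT females (4.44 to 6.62 CPM) (-2.14 by style, SE 0.14, adjusted p = 1.38e-09).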

How the data were processed

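Poly(A) RNA of 24 brain vessel libraries was sequenced on an Illumina NextSeq, per the labels' protocols. The deposited table holds CPM made by the authors. Its column names and values give that unit, and per the submitters' processing notes the genome was mm10. Aligner, counting tool, annotation and strand were not given in the sources used here. Of 15346 rows, 1598 without values and 10 repeats of 2 symbols were left out, leaving 13738 genes. Library totals came from the step between values: with these totals, 100% of values came within 0.01 of whole reads. Totals and read numbers are estimates.

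A model of 6 group means (APP by sex and style of name, WT by sex) was fitted to log2(CPM + 1) of all 24 libraries with limma 3.58.1 (trend) in R 4.3.3, which understates changes of low genes. The call was a p under 0.05 after Benjamini-Hochberg adjustment over all genes. Since each library is 1 mouse, p-values rest on the spread among mice. Named genes were the members, the 3 genes most correlated with each (mean of at least 1 CPM), called neighbours within 1 Mb, up to 3 genes per list and comparison with the smallest p, and label checks; Ifi44, Nr2f6 and genes behind small counts were named after their values were seen. The members and lists were chosen with earlier results of these data known. Alternatives were another pseudocount (0.1), TMM scaling, a filter at 5 CPM, only the groups compared, a replicate block and the removal of each library in turn. The list counts with TMM scaling and without WT female 3 were chosen after seeing the data. On simulated data with 200 changed of 13738 genes, the WT comparison found 61% of the changes of size 0.5 (log2) and 90% of those of size 1, with 4.43% false calls, and style by sex found 7% and 52%. RefSeq positions on GRCm38.p6 agreed in chromosome for 13647 genes, and shared words came from GENCODE transcripts of the same build.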

Additional observations from a re-analysis of the deposited data

Results flagged for a closer look

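Within groups of 4 or 6 libraries, 4 of 40 member and group combinations held a library whose gap to the nearest other one, as a share of the group's range, was above Dixon's critical value at the 95% level, which by its definition chance exceeds in about 1 in 20 groups. Hpgd was at 3.33 CPM in APP male 1, against 1.52 to 1.67 CPM in the other short-named APP males. B3gnt3 was at 6.4 CPM in APP female 3, against 4.9 to 5.03 CPM in the other short-named APP females, and at 62.7 CPM in WT female 3, against 34.5 to 44.7 CPM in the other WT females. Spata31f1b was at 4.1 CPM in WT female 5, against 2.03 to 2.53 CPM in the others. Each of these libraries stayed on the side of its set.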

How the results depend on the processing

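Of 548 tested member differences under the alternatives, 528 kept their side of the threshold and, where called, their direction, 18 lost the call (10 for Hpgd in WT, 8 for Marchf8 between the sexes of short-named APP mice), 2 gained it (Ifi44l in style by sex) and 0 reversed a call. In WT the number of members called was 9 or 10 when each library was left out, and 7 of the 7 that remained after the 5 CPM filter; all genes called were 1969 to 2701. Between the sexes of short-named APP mice 1 member was called with TMM scaling, with the 5 CPM filter or with only the groups compared, which called 1098 genes; leaving out each library gave 1 to 2 members and 958 to 2426 genes, with 958 without APP male 4, 1151 without APP female 5 and 1075 without APP female 6. For long-named APP mice leaving out any library gave 5 to 6 genes and 0 members. Style by sex called 173 genes with the 5 CPM filter and 10 with the replicate block; leaving out each library gave 0 to 419 genes and 0 to 1 members, with 0 by limma without APP female 2 (1670 at an unadjusted p under 0.05), 3 without APP male 5 and 195 without APP female 5. Short against long names called 542 to 1507 genes when each library was left out, with 542 without APP male 5, 602 without APP female 1 and 635 without APP female 2. The causes were not tested.

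The median place of WT males was 0.596 on the log2 scale, which compresses high values, and 0.485 to 0.528 in CPM when each library was left out; that of WT females was 0.992 to 1.01. A pseudocount of 0.1 moved the style difference of Ifi44l to 6.74, Spata31f1b to -3.75, Pttg1 to -3.95 and Calr3 to 2.86. Called neighbours were 18.3% within 0.5 Mb and 19.4% within 2 Mb. TMM scaling changed the share of higher calls from 31.7% to 52.2% for short against long names and from 81.6% to 62.5% for the sexes of short-named APP mice, and moved the median of all genes in style by sex from 0.14 to 0.03. Replicate numbers gave no sign of pairing in WT: around their group means, same-numbered female and male libraries correlated at -0.22 to 0.13, and 0 of 6 best with their own number. The APP libraries were not examined in this way. With the replicate block 2895 genes and 10 members were called in WT. Count tests were not run: library totals were estimated from the values themselves, and a separate check of the recovered reads passed for 2 of the 24 libraries, the others having too few low values, so read numbers here are estimates. Without WT female 3, WT calls (higher and lower) were 2 and 3 for securin genes, 8 and 0 for glycosidases and 2 and 1 for MARCH genes (2 and 4 with TMM scaling). Depth limits Ifi44l and Spata31f1b, which were at 0 in some libraries.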
